A study of Mus musculus with 3 samples.

Results

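The genes described are those of the MHC class II antigen presentation pathway: the classical chain genes H2-Aa, H2-Ab1 and H2-Eb1, the invariant chain gene Cd74, the peptide exchange genes H2-DMa, H2-DMb1 and H2-DMb2, the inhibitor genes H2-Oa and H2-Ob, and the transactivator gene Ciita. The 10 genes were selected by symbol from the platform annotation, with every probe the array carries for them, which gave 14 of 25697 probes and 10 of 16593 named genes. The set was chosen from results of the same intensities, among them a difference of H2-Aa between arrays, so all its values are a description and none was tested. The samples were 3 arrays of 1 group at day 10. Cells positive for the red fluorescent protein Cherry were sorted from the digested acinar fraction of the pancreas of Rag1-/- mice, after adenovirus had been injected into the splenic lobe and the islets had been removed. The titles name the cells induced delta cells and the extraction text names them induced beta cells. The labels leave out the gene that the virus carried, the strain, age and sex of the mice, and whether the 3 samples came from separate mice, so the spread between arrays may be technical. No control sample was analysed here, and no comparison between groups was made.

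MHC class II molecules are heterodimers of an alpha and a beta chain that show peptides from endosomes to CD4+ T cells. The invariant chain fills the groove of new dimers and guides them to endosomes, where proteases trim it to a short peptide. H2-DM then exchanges that peptide for others, and H2-O holds H2-DM back. Dendritic cells, B cells and many macrophages carry class II, and interferon gamma can induce it in epithelial and endothelial cells through CIITA, a coactivator without its own DNA contact that joins factors bound to the X and Y boxes of class II promoters. Rag1 is needed to rearrange antigen receptor genes, so Rag1-/- mice lack mature T and B cells and keep macrophages, dendritic cells and natural killer cells.

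Letters of the X and Y boxes, known from the control of classical class II genes, are shown first. A pair of them was shared by 4 of the 7 genes with a RefSeq promoter window. H2-Ab1, Cd74 and Ciita were not among the windows used. Each line gives 70 bases on the gene's strand, read 5′ to 3′ from RefSeq on GRCm38.p6, from 50 bases before the Y box core to 15 after it. Capitals mark the Y box core ATTGG and, where it precedes at 20 to 35 bases, the X box core GCAAC, to which the RFX complex is known to bind.
H2-Aa, chr17:34287852-34287921, minus strand: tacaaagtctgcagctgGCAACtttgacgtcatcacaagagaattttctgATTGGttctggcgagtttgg
H2-Eb1, chr17:34305758-34305827, plus strand: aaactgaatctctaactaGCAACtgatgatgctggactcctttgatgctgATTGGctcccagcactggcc
H2-Oa, chr17:34092286-34092355, plus strand: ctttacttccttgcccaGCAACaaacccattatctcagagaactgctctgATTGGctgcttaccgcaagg
H2-Ob, chr17:34238798-34238867, plus strand: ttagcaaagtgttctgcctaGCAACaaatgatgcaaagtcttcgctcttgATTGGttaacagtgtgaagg
H2-DMb1, chr17:34153080-34153149, plus strand: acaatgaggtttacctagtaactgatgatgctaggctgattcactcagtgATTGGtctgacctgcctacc
H2-DMb2, chr17:34145109-34145178, plus strand: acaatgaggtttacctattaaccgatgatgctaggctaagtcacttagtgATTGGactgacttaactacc

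GCAAC stood 28 bases before ATTGG in H2-Aa, 27 in H2-Eb1, 28 in H2-Oa and 25 in H2-Ob, counted as the bases between the motifs. Measured from the annotated start, ATTGG began at -48 in H2-Aa, -59 in H2-Eb1, -43 in H2-Oa and -57 in H2-Ob. Among 32851 promoter windows of the same kind (250 bases before to 50 after a start), 261 held the pair on either strand (0.794%) and 128 on the gene's strand (0.39%). ATTGG alone was found in 37.4% of all windows and GCAAC alone in 35.2%, on either strand, so each motif alone is common. All 7 genes with a window held ATTGG on the gene's strand in at least 1 window, beside 22.1% of all windows on that strand. The X2 box core TGACG was found in H2-Aa alone among the 7, overlapping itself on both strands within tgacgtca, and in 20.8% of all windows. In the 70-base windows H2-DMb1 and H2-DMb2 were identical at 61 positions (87.1%). H2-DMa had 2 windows, without the pair in either, and held ATTGG in window 2 alone, at -198. The genes with the pair were on both sides of detection: H2-Aa and H2-Eb1 were detected and H2-Oa and H2-Ob were not, as described below. A match of letters is a description and shows no binding. Only exact letters were searched, so an X, X2 or Y box with other letters would be missed.

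**Figure D1:**
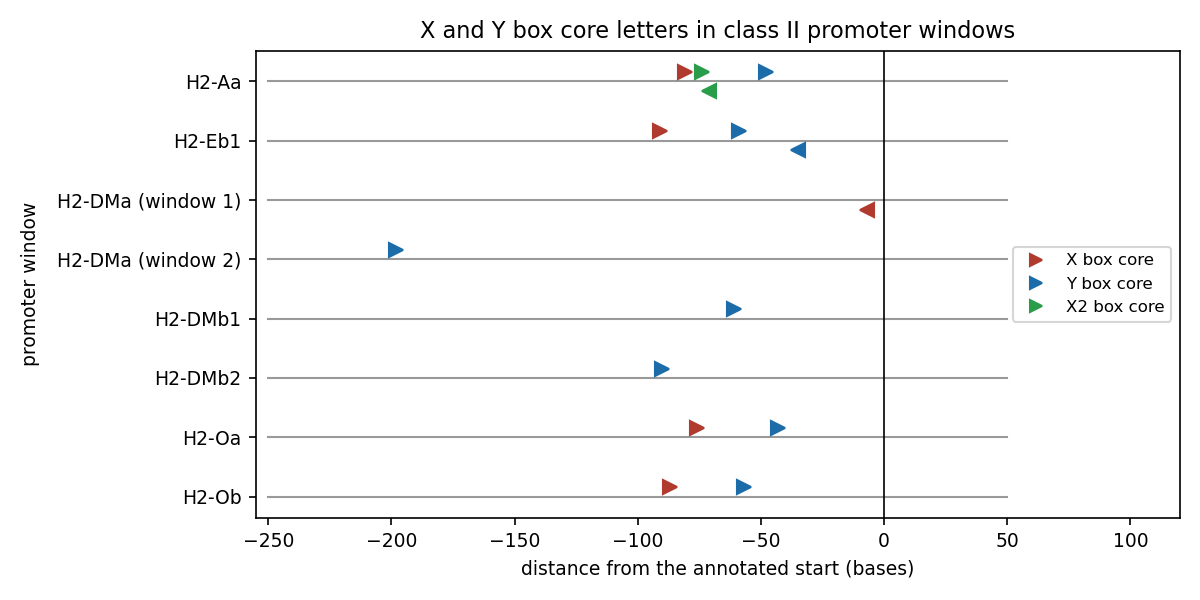
Positions of the X box core, Y box core and X2 box core letters (coloured triangles) in 8 RefSeq promoter windows of 7 genes, against distance in bases from the annotated start at 0. Triangles above a line and pointing right lie on the gene's strand, those below on the other strand; in H2-Aa, H2-Eb1, H2-Oa and H2-Ob the X box core stands 25 to 28 bases before the Y box core.

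Detection on all 3 arrays was met by 7 of the 10 genes, beside 40.9% of all 16593 named genes. A probe was called detected where its deposited detection p, the rank of its signal among the negative-control beads of the same array, was under 0.05 on each of the 3 arrays. For a gene, 1 such probe sufficed. By probe, 10 of 14 were detected, against 33% of all 25697 probes. The classical chains, the invariant chain, H2-DMa, H2-DMb1 and Ciita were above background, and H2-DMb2, H2-Oa and H2-Ob were not. Each array reads the RNA of many sorted cells together, so a few cells with much of a transcript and many cells with little cannot be told apart, nor can fewer cells of a type and less RNA per cell.

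Signals are given below as the deposited average bead intensity on the arrays of replicates 1, 2 and 3. Levels are log2 values after background correction and quantile normalization, as mean ± SD over the 3 arrays, on a scale where the lowest detected probe read 4.83, 4.77 and 4.75 on the 3 arrays. Probes differ in efficiency, so the level of a gene was not set against that of another gene.

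H2-Aa, which encodes the alpha chain of the I-A molecule, had 1 probe, with intensities of 1184, 1294 and 1825. The array of replicate 3 stood apart and the other two lay close together. The signals were 19.6, 23.9 and 35.2 times the median negative control of their arrays, and the level was 10.42 ± 0.30.

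H2-Ab1, which encodes the beta chain of I-A, had 4 probes. Its brightest probe gave 3088, 3252 and 3125 and a level of 11.60 ± 0.050, and the next gave 2874, 2901 and 2959 and a level of 11.48 ± 0.046. Both varied little between arrays, unlike the probe for the partner chain. Another probe, at 328, 357 and 356, had a level of 8.26 ± 0.030. The fourth read 67.2, 60.1 and 66.6 and passed the detection threshold on the array of replicate 3 alone (detection p of 0.16, 0.159 and 0.0188). Probes of the same gene thus ranged from 1.11 to 60.3 times the median negative control. Which part of the transcript each covers was not used here.

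H2-Eb1, which encodes the beta chain of the I-E molecule, gave 1617, 1484 and 1656 with its 1 probe. The arrays of replicates 1 and 3 were the higher ones, and the level was 10.59 ± 0.12. H2-Ea, which encodes the alpha partner of that chain and is not one of the 10 genes, gave 58.2, 58.0 and 55.0 with 1 probe and was not detected on any array (4.40 ± 0.079).

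Cd74, which encodes the invariant chain, had 2 probes. The brighter gave 1248, 1266 and 1316 and the dimmer 465, 456 and 448, and neither set one array apart from the others. Their levels were 10.27 ± 0.035 and 8.70 ± 0.090. Cd74 had the smallest range between arrays of the 7 detected genes, 0.067 log2 units with the brighter probe, while that of the dimmer probe was 0.17.

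H2-DMa and H2-DMb1 encode the chains of the H2-DM heterodimer. H2-DMa gave 137, 152 and 152, lowest on the array of replicate 1, with a level of 6.73 ± 0.12. H2-DMb1 gave 292, 285 and 295, with a level of 7.97 ± 0.061. H2-DMb2, the second beta chain gene, gave 58.7, 56.2 and 45.5, which is 0.877 to 1.04 times the median negative control. It was not detected on any array (4.32 ± 0.085), in contrast to its neighbour H2-DMb1, whose signal was 4.84 to 5.68 times the median negative control. The 2 genes are close copies, and whether their probes tell the transcripts apart was not tested.

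H2-Oa and H2-Ob encode the chains of H2-O, which is known mainly from B cells, thymic epithelium and some dendritic cells. H2-Oa gave 55.9, 51.5 and 54.0 and H2-Ob 50.3, 55.1 and 51.2, and no array detected either. Their levels were 4.32 ± 0.072 and 4.31 ± 0.088. A dim probe can belong to a transcribed gene, as the fourth H2-Ab1 probe shows beside 3 brighter ones, so these signals set no upper limit on the transcripts.

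Ciita, which encodes the transactivator of the class II genes, gave 76.2, 82.6 and 70.9, 1.26 to 1.52 times the median negative control. Its detection p was 0.0263, 0.00125 and 0.00877 on the 3 arrays, so it was the detected gene closest to the threshold, with the fourth H2-Ab1 probe just outside. The level was 5.16 ± 0.25. It was not called when the threshold was set at 0.01 or when detection p was adjusted within each array, which left 6 of 10 genes against 35.4% and 36.8% of all genes.

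**Figure D2:**
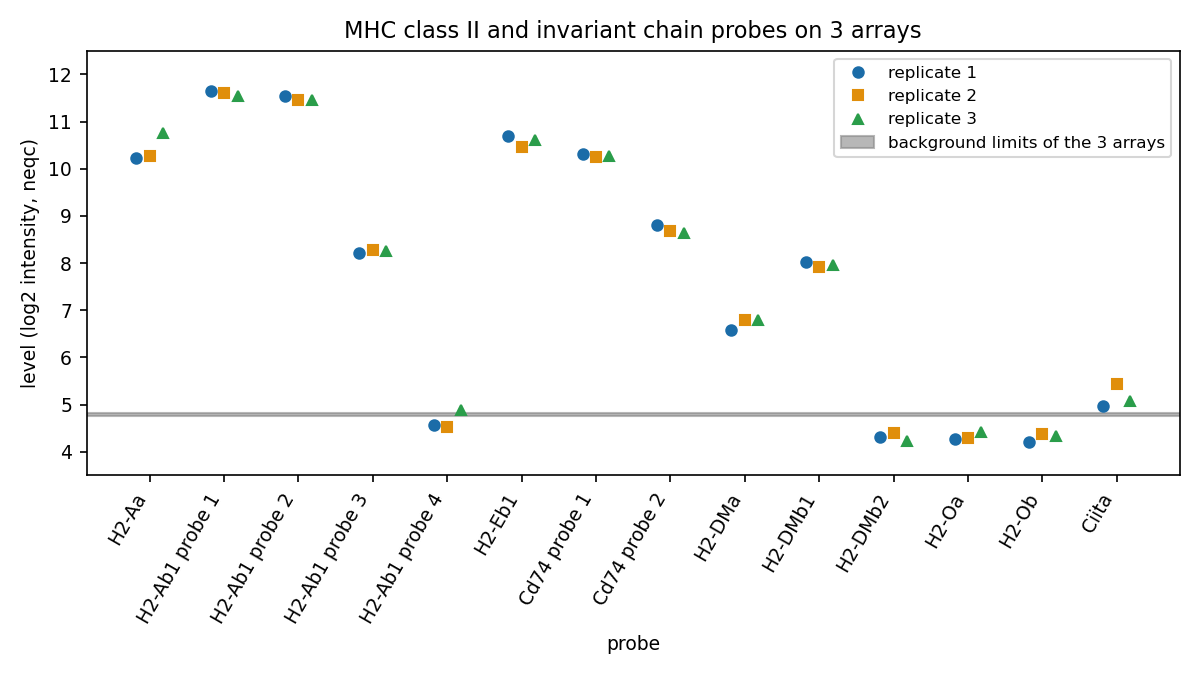
Level (log2 intensity after normexp background correction and quantile normalization) of the 14 probes of the 10 genes on the arrays of replicates 1 (circles), 2 (squares) and 3 (triangles); probes of the same gene are numbered from the brightest. The grey band spans the background limits of the 3 arrays, 4.75 to 4.83: H2-DMb2, H2-Oa and H2-Ob lie below it, Ciita just above it, and H2-Aa is the bright probe with 1 array apart.

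Between arrays, H2-Aa differed most, and of the other bright genes H2-Ab1 and Cd74 differed little. H2-Aa read 10.23, 10.27 and 10.76 on the log2 scale, a range of 0.53 log2 units or 1.44-fold. It was the 1 of 7 detected genes with a range of at least 0.5, against 2.71% of the 6784 genes whose brightest probe was detected, and 149 of these had a larger range. H2-Ab1, its partner chain, ranged by 0.097 with the brightest probe and was lowest on the array of replicate 3, where H2-Aa was highest. A shared shift of both chains on the array of replicate 3 was not seen. H2-Eb1 ranged by 0.23, H2-DMa by 0.21 and H2-DMb1 by 0.12. The median range of the 7 genes was 0.215 and that of the 6 other than H2-Aa 0.167, beside 0.163 over all detected genes, whose 90th percentile was 0.361. Ciita read 4.97, 5.44 and 5.07, highest on the array of replicate 2, with a range of 0.47. That of Ciita was 0.23 without background correction, 0.24 with an offset of 50 and 0.29 in the authors' processed values. Without the array of replicate 2 it was 0.098.

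The range of H2-Aa was 0.52 to 0.57 under the other background corrections, scalings and offsets and in the authors' processed values. It was 0.040 without the array of replicate 3, so the difference rests on that array. Of the 7 genes, 4 were highest on the array of replicate 1, against 36.9% of detected genes (3 genes and 34.9% with median scaling, where H2-Ab1 was highest on that of replicate 2), 2 on that of replicate 2 and 1 on that of replicate 3. Over all detected genes the shares on the arrays of replicates 2 and 3 were 33.3% and 29.7%. The 5 other genes whose array pattern was most like that of H2-Aa, by Euclidean distance between deviations from the 3-array mean, were Rhbdl2 (0.0050), Selenop (0.020), Zswim5 (0.024), Lypla1 (0.028) and Exosc6 (0.035). A gene without any difference between arrays would lie at 0.42. Rhbdl2 encodes a rhomboid protease and Selenop a secreted selenoprotein. The distance spans 3 arrays and was taken over 6777 genes, and nothing is drawn from it about shared function.

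**Figure D3:**
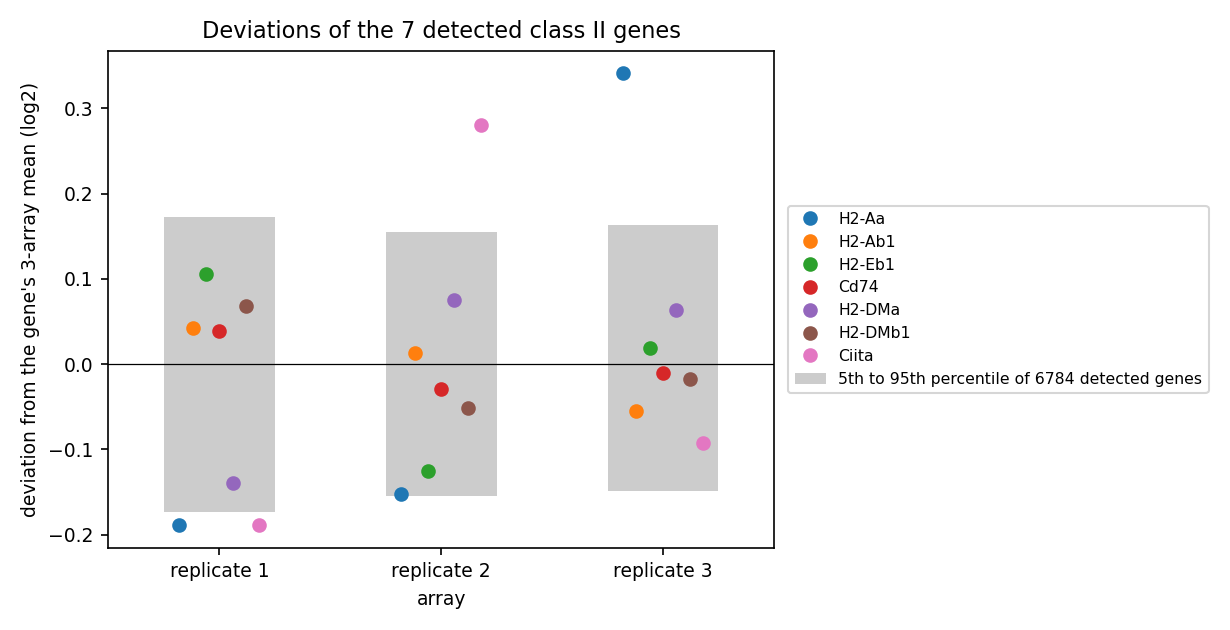
Deviation of each of the 7 detected genes (coloured points, brightest probe) from its own 3-array mean, in log2 units, on each array. Grey bars span the 5th to 95th percentile of the deviations of all 6784 detected genes; H2-Aa on replicate 3 (0.341) and Ciita on replicate 2 (0.28) lie above them, and both lie below the bar on replicate 1 (-0.189).

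Factors that bind class II promoters were detected for 4 of 8 measured genes, close to the 40.9% of all genes. Rfxap, a subunit of the RFX complex, gave intensities of 206, 213 and 204 (7.39 ± 0.041). Rfx5 (4.36 ± 0.048) and Rfxank (4.61 ± 0.012), the other subunits, were not detected on any array with 1 probe each. Of the NF-Y complex, which binds the Y box, Nfyb (7.42 ± 0.023) and Nfyc (10.28 ± 0.049) were detected and Nfya (4.31 ± 0.082) was not. Creb1, whose protein binds the X2 box, was at background with all 6 probes (4.44 ± 0.12), and Zxdc, known from human cells as a cofactor of CIITA, was just above it (5.02 ± 0.11).

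Genes of endosomal processing were detected for 6 of 7 measured genes (40.9% of all genes). Ctss, which encodes cathepsin S, the protease that makes the last cuts in the invariant chain in many antigen-presenting cells, gave 214, 201 and 260, highest on the array of replicate 3 (7.52 ± 0.22). Of the 6 detected genes of this list, 3 were highest on that array, 2 on that of replicate 1 and 1 on that of replicate 2. Over all detected genes these shares were 29.7%, 36.9% and 33.3%. Ctsl, which encodes the cathepsin with that role in thymic epithelium, passed the threshold on 1 array (4.60 ± 0.28). Ctsb (12.88 ± 0.038), Ctsd (5.76 ± 0.026), the asparaginyl endopeptidase gene Lgmn (6.47 ± 0.071) and Ifi30, which encodes the thiol reductase GILT (5.70 ± 0.17), were detected. So was Cst3, which encodes the cathepsin inhibitor cystatin C (9.52 ± 0.075). Ctsb and Cst3 are expressed in most cells, including acinar cells.

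Surface turnover and costimulation genes were detected for 6 of 7 measured genes, beside 40.9% of all genes, and for 3 of 7 when all probes of a gene had to be detected, beside 28.3%. Icosl had no named probe. Cd86, the costimulatory ligand of CD28, gave 136, 147 and 140 (6.65 ± 0.085), while Cd80, the other ligand, was at background (4.29 ± 0.029). Cd40 (5.79 ± 0.066), Cd83, which encodes a protein that slows class II turnover (6.22 ± 0.055), Icam1 (6.31 ± 0.13) and the ubiquitin ligase genes Marchf8 (6.36 ± 0.20) and Marchf1 (5.05 ± 0.11) were detected. Marchf1 encodes the ligase that removes class II from the surface of dendritic and B cells.

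Of the interferon gamma pathway, 7 of 12 measured genes were detected, beside 40.9% of all genes, and 3 of 12 when all probes were required, beside 28.3%. Ifng was at background with both probes (4.39 ± 0.081), and Ifngr1 passed the threshold on 2 arrays (4.89 ± 0.12). Ifngr2 (7.97 ± 0.084), the kinase genes Jak1 (5.03 ± 0.11) and Jak2 (5.52 ± 0.17), and Irf1, which encodes a factor that activates the interferon-inducible Ciita promoter (10.36 ± 0.092), were detected. Of the target genes, Gbp2 (7.34 ± 0.070), Gbp3 (6.24 ± 0.18) and Cxcl9 (5.23 ± 0.16) were detected and Cxcl10 (4.43 ± 0.068), Ido1 (4.55 ± 0.17) and Socs1 (4.52 ± 0.19) were not. Without a control, these values do not show a response to interferon.

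Along chromosome 17, detected and undetected genes of the class II region were intermixed. The RefSeq table placed 14 protein-coding genes from H2-Oa to H2-Eb2, all with a probe, of which 9 were detected, 5 of the 8 class II genes and 4 of the 6 others, beside 40.9% of all genes. From the H2-Oa end the order was H2-Oa, Brd2, H2-DMa, H2-DMb2, H2-DMb1, Psmb9, Tap1, Psmb8, Tap2, H2-Ob, H2-Ab1, H2-Aa, H2-Eb1 and H2-Eb2. Brd2, which encodes a bromodomain protein of most cells, lay next to the undetected H2-Oa and read 10.58 ± 0.086. Of the class I genes in between, the peptide transporter gene Tap2 (9.30 ± 0.016) and the immunoproteasome gene Psmb9 (8.49 ± 0.11) were well above background, Tap1 was just above it (4.91 ± 0.052), and Psmb8 passed on 2 arrays (4.81 ± 0.13). H2-Eb2, beside H2-Eb1, passed on 1 array (4.73 ± 0.14), as did Btnl2, a further gene of the region (4.63 ± 0.17).

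**Figure D4:**
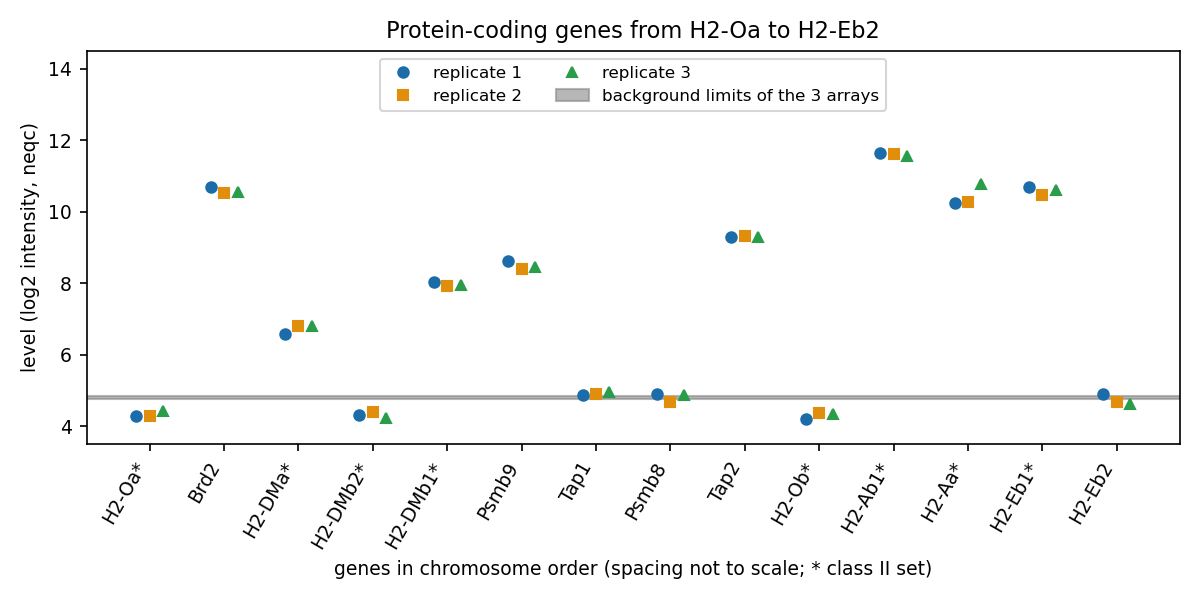
Level (log2 intensity) on the 3 arrays of the 14 protein-coding genes from H2-Oa to H2-Eb2, in chromosome order with spacing not to scale; asterisks mark the class II set and the grey band the background limits of the 3 arrays. The 3 classical chain genes lie side by side near 10 to 12, next to H2-Ob at background, and H2-DMb1 at 7.97 lies next to H2-DMb2 at 4.32.

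Of the lists of cell types that carry class II, the macrophage and monocyte list was above the detected share of all genes. The dendritic and B cell lists were below it, and the part of these cells in the class II signals was not tested. Of the macrophage and monocyte list, 9 of 12 measured genes were detected (40.9% of all genes), and the summed intensity of the 12 was 2763, 3047 and 3424 on the 3 arrays, against 725, 651 and 622 if each had read the median negative control. Lyz2, which encodes lysozyme, gave 942, 1108 and 1514 and made most of the difference between these sums. Without Lyz2, an omission chosen after seeing the data, they were 1821, 1939 and 1910. Of the 9 detected genes, 2 were highest on the array of replicate 1, 5 on that of replicate 2 and 2 on that of replicate 3, where H2-Aa was highest. Over all detected genes these shares were 36.9%, 33.3% and 29.7%. Adgre1, which encodes F4/80, was lowest on the array of replicate 1, with 416, 552 and 540. The complement genes C1qa (7.06 ± 0.055) and C1qb (8.44 ± 0.019) differed little between arrays, as did H2-Ab1 and Cd74. C1qc went the other way and gave 182, 166 and 151. Cd14, Fcgr1, Cx3cr1 and Mrc1 were detected, Ptprc and Itgam were on no array, and Mertk was on 1; Cd68 and Csf1r had no named probe.

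Of the dendritic cell list, 4 of 11 genes were detected (40.9% of all genes), all within 1 log2 unit of background: Ccr7 (5.44 ± 0.27), Zbtb46 (5.26 ± 0.18), Irf8 (5.41 ± 0.13) and Siglech (5.33 ± 0.23). Itgax, Flt3, Xcr1, Clec9a, Irf4 and Cd209a were not detected on any array and Batf3 was on 1. The summed intensity of the list was 775, 713 and 683, against 664, 596 and 570 at the median negative control, and exceeded the latter by 110, 117 and 113, so the arrays differed little. Of the B cell list, 0 of 6 measured genes were detected on all arrays, beside 40.9% of all genes. Their sums were 391, 326 and 334 against 362, 325 and 311. Cd79a alone passed the threshold, on 2 arrays, and Cd79b, Ms4a1, Pax5, Cr2 and Blk on none. Of the endothelial list, 2 of 8 were detected, Plvap and Esam, beside 40.9% of all genes. Emcn passed the threshold on 2 arrays, and Pecam1, Cdh5, Kdr, Tek and Vwf on none.

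Markers of the delta cells named by the titles, and of acinar and epithelial cells, were detected as well. Delta cell genes were detected for 4 of 5 (40.9% of all genes), with Sst, the somatostatin gene, at 13.81 ± 0.046 and Ghsr at background (4.58 ± 0.13). All 6 acinar genes were detected, as were all 3 measured epithelial genes, beside the same 40.9%. Cdh1, which encodes E-cadherin, gave 1750, 1793 and 2386, while Krt18 was highest on the array of replicate 1 (9.65 ± 0.080) and Krt8 differed little between arrays (10.40 ± 0.025). The summed intensity was 3897, 4033 and 4692 for the epithelial list, 14753, 14759 and 16272 for the delta cell list and 94242, 93446 and 96197 for the acinar list. On the array of replicate 3, where H2-Aa stood apart, 2 of 3 epithelial, 3 of 4 detected delta cell and 2 of 6 acinar genes had their highest level. Over all detected genes that share was 29.7%, and Sst and Hhex, among the delta cell genes, ranged by only 0.08 and 0.031 log2 units. Without Prss2, also left out after seeing the data, the acinar sums were 75041, 75920 and 75716. Which cells carried the class II transcripts is not shown by these arrays.

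**Figure D5:**
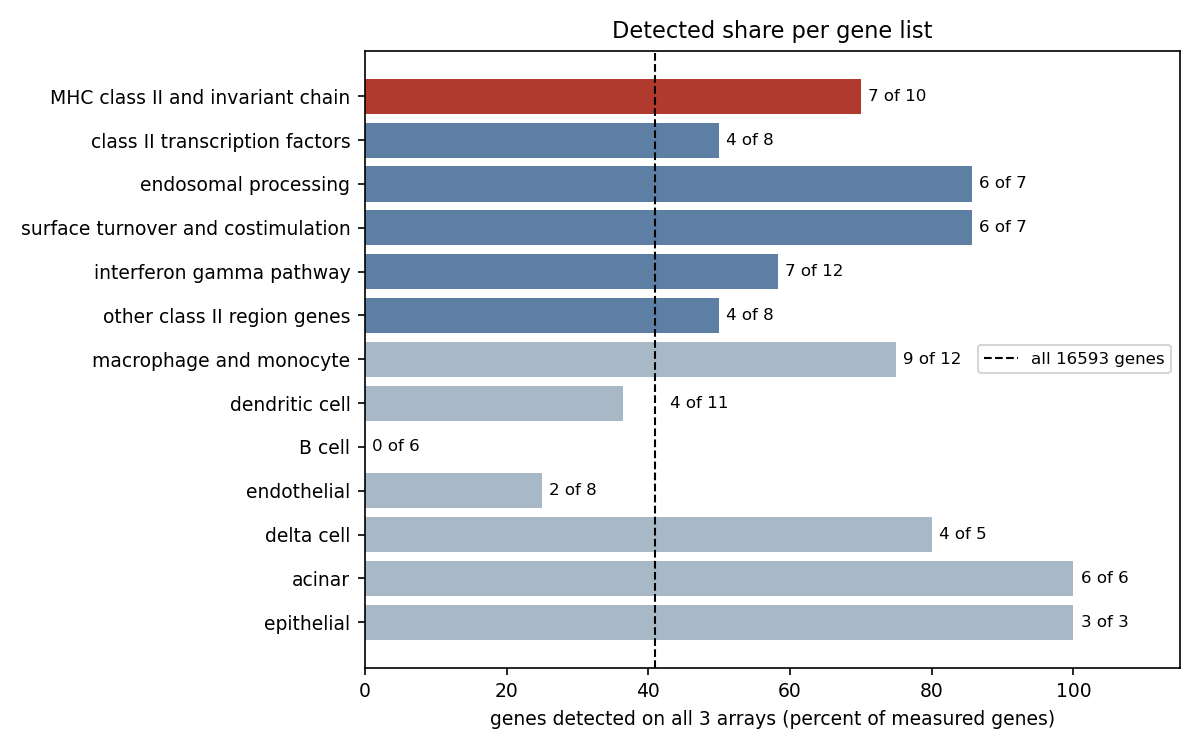
Share of measured genes detected on all 3 arrays, in percent, for the 10 class II genes (red), 5 pathway or region lists (dark blue) and 7 cell type marker lists (light blue), with the count beside each bar. The dashed line marks all 16593 genes at 40.9%; the class II set (7 of 10) and the macrophage list (9 of 12) lie above it, the B cell list (0 of 6), the endothelial list and the dendritic cell list below it.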

How the data were processed

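RNA of 3 sorted samples of 1 group was read on Illumina MouseRef-8 v2.0 beadchips, per the labels. Per the file headers, the authors deposited for each probe a mean bead intensity on a linear scale with its detection p-value. The columns share a mean of 211.8, so the authors had scaled the arrays to each other, and negative-control background had not been subtracted: the lowest values were 41.8, 38.7 and 36.0, under the median negative controls of 60.4, 54.2 and 51.9. The second deposited table holds processed intensity values and served as an alternative. The labels name no scanner software.

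The platform annotation named 23978 probes. The arrays detected 9145, 9592 and 9713 probes (35.6%, 37.3% and 37.8%). Intensities were background-corrected with normexp (negative controls inferred from detection p, offset 16), quantile normalized and taken to log2 (neqc, limma 3.58.1, R 4.3.3). The procedure was run on simulated data in which probes well above background were doubled on a single array. Shifts of probes near background, such as that of Ciita, were not covered by it. The brightest probe stood for its gene. The number of arrays limits the precision. The genes, the lists and the rules for naming genes (all 10 genes, the lists' genes, and the 5 genes nearest to H2-Aa) were chosen with earlier results of these data known. RefSeq promoter windows (GRCm38.p6) were searched for exact letters. A planned comparison of protein sequences was not run. No group comparison was possible, so no test was made. Alternatives were the detection rule, background correction, scaling, offset, the authors' values, the probe rule and leaving out each array.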

Additional observations from a re-analysis of the deposited data

How the results depend on the processing

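The count of 7 detected class II genes was 6 to 7 under the 7 alternatives run. H2-Ab1 was not called when all probes of a gene had to be detected, nor was Ciita at a detection p under 0.01 or with adjustment within each array. When all probes were required, 3 costimulation and turnover genes (against 6) and 3 interferon gamma genes (against 7) were called. Of the B cell list, 1 gene was called with 2 of 3 arrays, and 0 to 1 when an array was left out. The number of class II genes with a range of at least 0.5 was 0 to 1 when an array was left out, 0 without that of replicate 1 or 3. Over all detected genes that count was 184, and 24 without background correction, 30 with an offset of 50, 26 in the authors' values, 207 with median scaling, and 63, 102 and 68 without the array of replicate 1, 2 and 3. Levels moved by more than 1 SD in 21 of 70 recomputed values and ranges in 9 of 56. The moved levels were all without background correction, with an offset of 50 or in the authors' values. None came with median scaling or with an array left out. Most of the moved ranges came with an array left out. The cause was not tested. The share highest on the array of replicate 1 has no value without that array. Ciita, at 1.26 to 1.52 times the median negative control, is limited by its low signal.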
